A study of Mus musculus with 12 samples.

Results

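The genes described here are 9 genes of the kisspeptin neurons and of the neurons that respond to gonadal steroids: Kiss1, Tac2, Pdyn, Gnrh1, Esr1, Pgr, Ecel1, Sytl4 and Moxd1. They were chosen by name, with earlier results of these data known. Their probes were found through a probe annotation that covers the 20791 probes of the authors' processed values. The non-normalized table, from which the values were taken, holds 45281 probes. Probes outside that annotation were not searched for these genes, but entered the normalization and, without a name, the tests over all features. A probe counted as measured where its detection p-value was under 0.01 on 3 or more of the 12 arrays. Of the 9 genes, 8 had a probe named there, 11 probes in all, and all 8 were measured, by 10 probes. They stand among 10912 named genes and 13547 features (genes and unnamed probes) tested in all. Gnrh1, the gene of gonadotropin-releasing hormone, was not analysed here.

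Hypothalamic RNA was taken on postnatal day 180 from FVB/NJ-Jax mice, a laboratory strain, and each mouse had 1 Illumina bead array. The 4 groups were small-litter males, small-litter females, control males and control females, with 3 mice in each, numbered as biological replicates in the labels. A small litter is a model of overnutrition in the suckling period, and the labels name no transgene or agent in any group. Litter sizes in pups, oestrous stage and the borders of the dissection were not stated in the sources used here. Hypothalamic genes such as Avp (vasopressin), Gal (galanin) and Th (tyrosine hydroxylase) were detected on all 12 arrays. So were markers of thalamus (Prkcd), striatum (Drd2), cortex and hippocampus (Slc17a7) and pituitary (Cga), so these detections do not show hypothalamus alone.

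Kisspeptin, the product of Kiss1, acts on the neurons that release gonadotropin-releasing hormone and so drives the pituitary and the gonads. In rodents its cells lie in the arcuate nucleus, where they also make neurokinin B (from Tac2) and dynorphin (from Pdyn), and in the preoptic region. The preoptic group is known to be larger in female than in male rodents. Esr1 encodes estrogen receptor alpha, which carries the feedback of gonadal steroids onto these cells, and Pgr, the progesterone receptor gene, is a classical target of it. Ecel1, Sytl4 and Moxd1 mark steroid-responsive or sexually dimorphic cells of the mouse preoptic area and hypothalamus. In whole tissue, fewer cells of a type and less RNA per cell cannot be told apart.

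The arrays differed in brightness by sex. The median bead intensity was 102.6 to 108.1 on the 6 male arrays and 112.2 to 127.0 on the 6 female arrays, and the first principal component, with 27% of the variance, also separated the sexes. Brightness and sex cannot be told apart in this design. Values below are log2 intensities after background correction and quantile normalization, unless raw intensity is named, and they were compared between groups within a probe, never between probes. Small-litter males 2 and 3 stood apart with 21.4 and 27.9 on that component, against 4.62 or lower on the other 10 arrays. Meningeal markers were high in control male 2 and control female 3, so calls that were lost without either pair of arrays are given as such. These 2 pairs were chosen after seeing the data.

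The regions upstream of the 3 genes whose levels differed between the sexes are shown first, since these genes carry the main result. Each is the stretch of 250 bases before the transcription start listed by RefSeq (build GRCm38.p6), written 5′ to 3′ on the gene's strand. Capitals mark GGTCA or its reverse complement TGACC, an arm of the estrogen response element. For Kiss1 the stretch is chr1:133326962-133327211 on the plus strand, which lies within the annotated gene (chromosome 1, 133321887 to 133329722). For Tac2 it is chr10:127724228-127724477 on the plus strand. For Sytl4 it is chrX:133981813-133982062 on the minus strand, which overlaps the edge of the annotated gene at 133981821.
Kiss1: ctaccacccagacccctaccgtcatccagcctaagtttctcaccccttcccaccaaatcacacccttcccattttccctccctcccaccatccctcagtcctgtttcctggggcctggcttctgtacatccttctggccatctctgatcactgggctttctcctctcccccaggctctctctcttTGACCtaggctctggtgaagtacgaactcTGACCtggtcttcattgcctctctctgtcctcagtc
Tac2: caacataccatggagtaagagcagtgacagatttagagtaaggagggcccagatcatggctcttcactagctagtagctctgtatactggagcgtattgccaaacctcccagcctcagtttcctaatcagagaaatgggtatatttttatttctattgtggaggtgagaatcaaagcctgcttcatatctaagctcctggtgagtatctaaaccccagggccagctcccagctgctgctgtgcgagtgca
Sytl4: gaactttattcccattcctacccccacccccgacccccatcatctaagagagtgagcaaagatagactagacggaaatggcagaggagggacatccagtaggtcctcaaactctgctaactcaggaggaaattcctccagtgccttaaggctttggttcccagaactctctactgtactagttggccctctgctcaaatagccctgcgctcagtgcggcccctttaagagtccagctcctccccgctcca
The Kiss1 stretch held TGACC at 2 places, beginning 65 and 36 bases before the start. No other of the 8 genes with an upstream sequence held GGTCA or TGACC in this window, while 35.2% of all 32851 upstream stretches of the same length did. The windows of Pgr and Ecel1, and a further window each of Pdyn and Esr1, also lie within the annotated genes. None of the 8 held the full element GGTCANNNTGACC, present in 0.0639% of all, or TGTTCT or its reverse complement, an arm of the progesterone and androgen receptor element, present in 16.1% of all. These are matches of letters and show neither binding nor its absence. In the same build the other genes lie at chr2:129686549-129699938 (Pdyn), chr10:4611989-5005633 (Esr1), chr9:8898900-8968611 (Pgr), chr1:87142874-87157085 (Ecel1) and chr10:24223517-24302783 (Moxd1), and the positions of the probes within the genes were not used here.

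The first comparison was between males and females. Kiss1 was lower in males than in females, with a log2 difference, males minus females, of -1.11 ± 0.12 (± SE, mean over both litter sizes, n = 6 per sex), which is 0.464 of the female level. This size depended on the background correction, and the male signal was near the background. The difference was -0.69 with an offset of 50, -0.44 without the correction and -0.43 by the authors' values. Tac2 was also lower in males, at -0.43 ± 0.11, and Sytl4 was higher in males, at 0.55 ± 0.11. Over both litter sizes these 3 of the 8 measured genes passed an adjusted p of 0.05 (limma, 2-sided, Benjamini-Hochberg over all 13547 features), where 4.66% of all features did. In control litters alone 1 of the 8 passed, Kiss1, where 0.0664% of all features did. The genes were chosen with earlier results of these data known, so these counts beside the shares only describe them. The 631 features called over both litter sizes became 21 without small-litter males 2 and 3, 79 without control male 2 and control female 3 and 1454 without small-litter male 1, and Kiss1 passed under each of these.

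Kiss1 separated the sexes on every array. It had log2 values of 5.33, 5.41 and 5.07 in small-litter males and of 5.06, 5.19 and 5.63 in control males. In females it had 6.13, 6.56 and 6.42 in small litters and 6.17, 6.63 and 6.45 in control litters. The highest male value, 5.63, lay below the lowest female value, 6.13. The means were 5.28 ± 0.22 in males and 6.39 ± 0.21 in females (SD, n = 6 each), with an adjusted p of 0.00123 by limma for the difference. In raw intensity Kiss1 lay 8.1 to 27.9 units above the array median in males and 45.9 to 80.0 units above it in females, also without overlap. The male signal was close to the background: it was detected on 5 of 6 male arrays, and the exception was control male 1 with a detection p of 0.0107, against 6 of 6 female arrays. By p-value Kiss1 ranked 6th of 13547 features over both litter sizes.

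In control litters the Kiss1 difference was -1.12 ± 0.17, males minus females (95% interval -1.49 to -0.75), with an adjusted p of 0.0335 by limma. It ranked 8th by p, among 9 features that passed, of which 6 were higher and 3 lower in males. Of the other 8, Xist, Kdm5d, Eif2s3y and Uty lie on the sex chromosomes, Tfb1m, Neurl2 and A230087F16Rik on autosomes, and 1 probe was unnamed (named here after their values were seen). The difference over both litter sizes passed under all 23 settings that could give it, the one reported included. That in control litters passed under 13 of 24, and was lost with only the arrays compared (adjusted p = 0.17), without the detection filter (0.0733), without small-litter males 2 and 3 (0.0817) and without control male 2 and control female 3 (0.28). It was also lost on leaving out small-litter male 1 or 2, small-litter female 3, control male 1 or 2, or control female 2 or 3 (adjusted p of 0.0571 to 0.199). The difference itself was -1.12 in the first 3 of these settings, -1.05 without control male 2 and control female 3, and -1.29 to -1.01 on leaving out any 1 array. In control litters the mean deviation of 7 arcuate markers (log2 value less the marker's mean over the 12 arrays) was -0.18 to -0.0029 in males and 0.08 to 0.20 in females, with 6 of 7 lower and 1 higher in males, and all 6 preoptic and anterior markers were lower in males. Their part in the control-litter differences of Kiss1 and Tac2 was not tested.

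**Figure D1:**
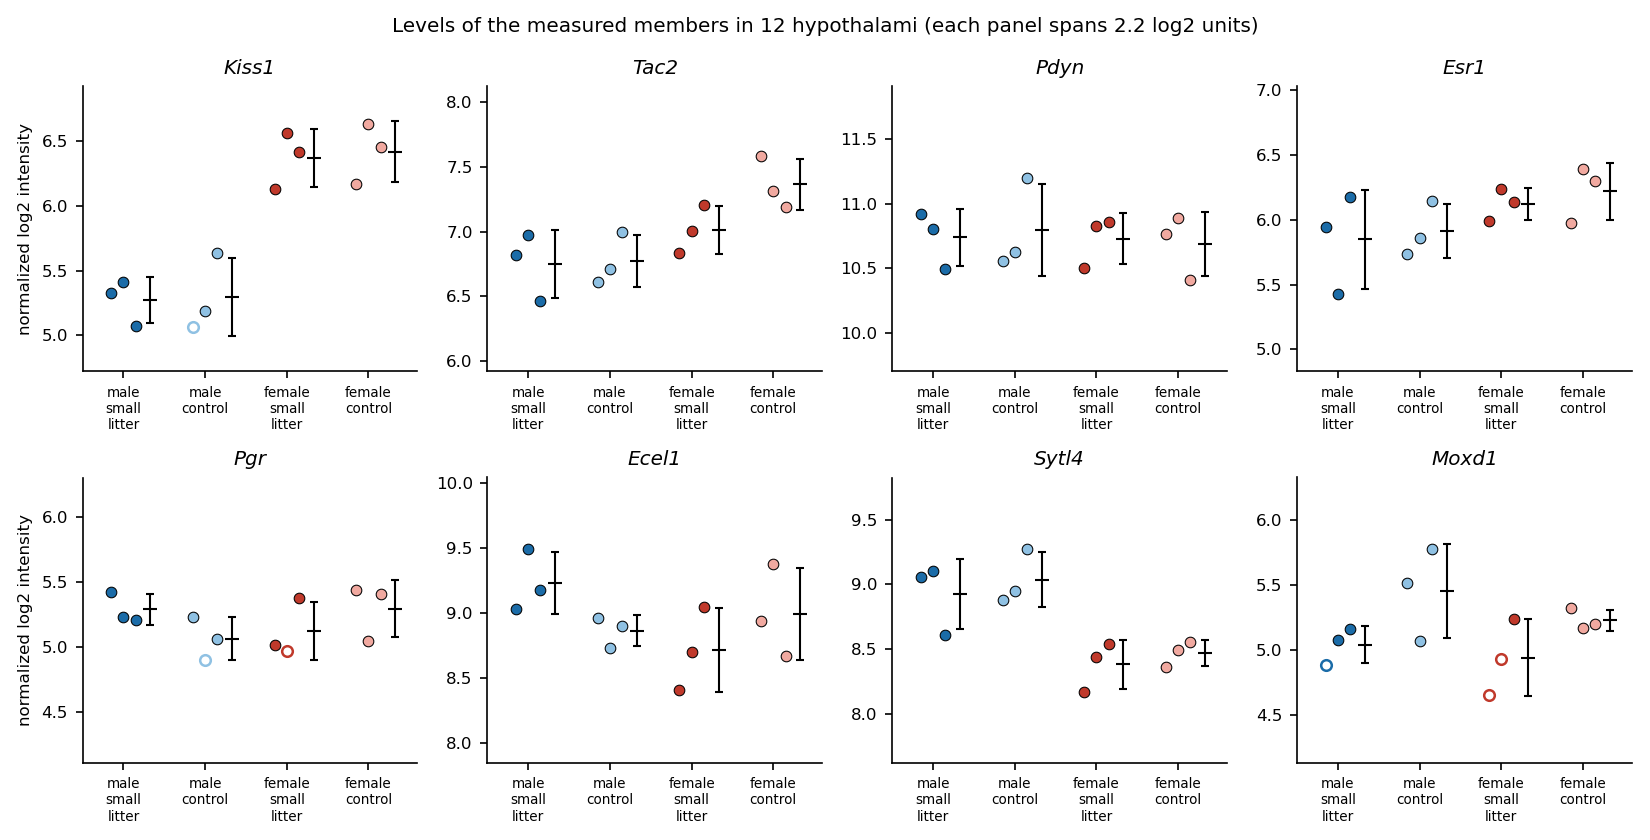
Normalized log2 intensity (y axis) of the 8 measured genes in each of the 12 mice, with filled points for arrays on which the probe was detected and open points where it was not; the black mark and bar are the group mean and SD (n = 3). All 6 male Kiss1 values lie at 5.63 or lower and all 6 female values at 6.13 or higher, while Sytl4 is reversed, with males at 8.61 or higher and females at 8.56 or lower.

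Tac2, the neurokinin B gene, was measured by 2 probes. The brighter probe had log2 values of 6.82, 6.98 and 6.46 in small-litter males and 6.61, 6.71 and 7.0 in control males. It had 6.83, 7.01 and 7.20 in small-litter females and 7.58, 7.32 and 7.19 in control females. In control litters all 3 males lay below all 3 females, with a difference of -0.59 ± 0.16 (adjusted p = 0.197 by limma), and in small litters the sexes overlapped. Over both litter sizes the difference of -0.43 ± 0.11 had an adjusted p of 0.0485, just past the threshold. It passed under 8 of 24 settings. The settings that ended the call included those without small-litter males 2 and 3 (adjusted p = 0.193), without control male 2 and control female 3 (0.113), with median scaling (0.0771), without the detection filter (0.0638) and without any 1 array other than small-litter male 1 (0.0557 to 0.106).

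The dimmer Tac2 probe was also lower in males. It had log2 values of 5.18, 4.94 and 4.71 in small-litter males and 4.90, 4.73 and 5.38 in control males. It had 5.76, 5.56 and 5.59 in small-litter females and 5.82, 5.81 and 5.26 in control females. Tested on its own over all probes, the male minus female difference over both litter sizes was -0.66 ± 0.13, with an adjusted p of 0.0216 by limma. This probe was detected on 2 of 6 male and 6 of 6 female arrays, and 1 male value lay above 1 female value. The male level thus lay at or near the background, which limits how far the size of this difference can be read. Both probes gave a lower mean level in males, but the dimmer one met the detection rule only through the female arrays. Its pass is therefore not read as a second result.

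**Figure D2:**
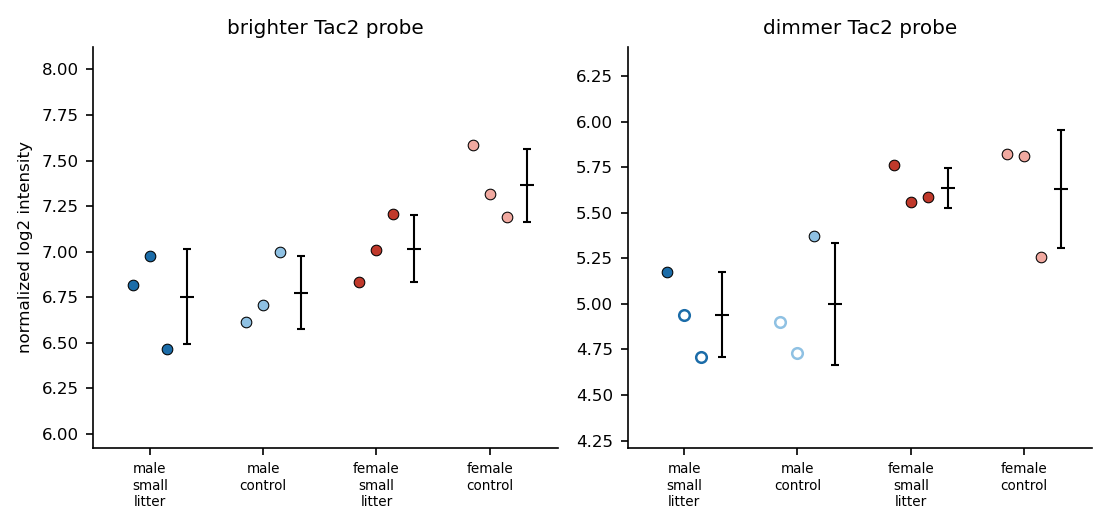
Normalized log2 intensity (y axis) of the brighter and the dimmer Tac2 probe in each mouse; open points were not detected, and the black mark and bar are the group mean and SD (n = 3). Females lie above males in mean on both probes, while small-litter females lie below control females in mean (7.02 and 7.36) on the brighter probe only, with 5.64 and 5.63 on the dimmer one.

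Pdyn, the dynorphin precursor gene, did not pass between the sexes. Its brighter probe had means of 10.77 ± 0.26 in males and 10.71 ± 0.20 in females (SD, n = 6 each), and its values overlapped. It had log2 values of 10.92, 10.80 and 10.49 in small-litter males, 10.51, 10.83 and 10.86 in small-litter females, 10.56, 10.63 and 11.20 in control males and 10.76, 10.89 and 10.41 in control females. The difference was 0.06 ± 0.13 (95% interval -0.22 to 0.34) with an adjusted p of 0.821 by limma. Its dimmer probe gave 0.14 ± 0.16. Pdyn is expressed in many hypothalamic and forebrain neurons besides the kisspeptin cells.

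Sytl4, which encodes the secretory granule protein granuphilin and lies on chromosome X, was higher in males. It had log2 values of 9.06, 9.10 and 8.61 in small-litter males and 8.88, 8.95 and 9.28 in control males. It had 8.17, 8.44 and 8.54 in small-litter females and 8.37, 8.49 and 8.56 in control females. The lowest male, small-litter male 3 at 8.61, lay just above the highest female at 8.56, so the sexes did not overlap. The difference over both litter sizes was 0.55 ± 0.11 (adjusted p = 0.0213 by limma), and in control litters it was 0.56 ± 0.15 (adjusted p = 0.197). The difference over both litter sizes passed under 21 of 24 settings, and was lost without small-litter male 2 (adjusted p = 0.0541) and without small-litter males 2 and 3 (0.0778) or control male 2 and control female 3 (0.0775).

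Of the pituitary markers, 3 of 8 were measured. Between the sexes over both litter sizes 2 of these passed an adjusted p of 0.05 by limma, where 4.66% of all features did. They went in opposite directions. Tshb, the thyrotropin beta gene, had log2 values of 4.88 to 5.66 in males and 4.56 to 4.91 in females. It was detected on 4 of 6 male and 0 of 6 female arrays, so it counted as measured only through the males. The female level is only a bound, so no fold is given and its pass is not read as a result. Cga, the gene of the subunit shared by the glycoprotein hormones, was lower in males, at -0.88 ± 0.23 (adjusted p = 0.048). The Cga call held under 8 of 23 settings, with an adjusted p of up to 0.261 by limma, and Tshb passed under 7 of 22. Prl, the prolactin gene, had a difference of -0.81 ± 0.66. The mean deviation of the 3 markers was -0.58 to 0.14 in males and -0.31 to 1.25 in females. Across the 12 arrays Tshb was the gene whose level was most like that of Sytl4 (r = 0.942), though Tshb was detected on only 4 of them. The part of pituitary RNA in the Sytl4 result was not tested.

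**Figure D3:**
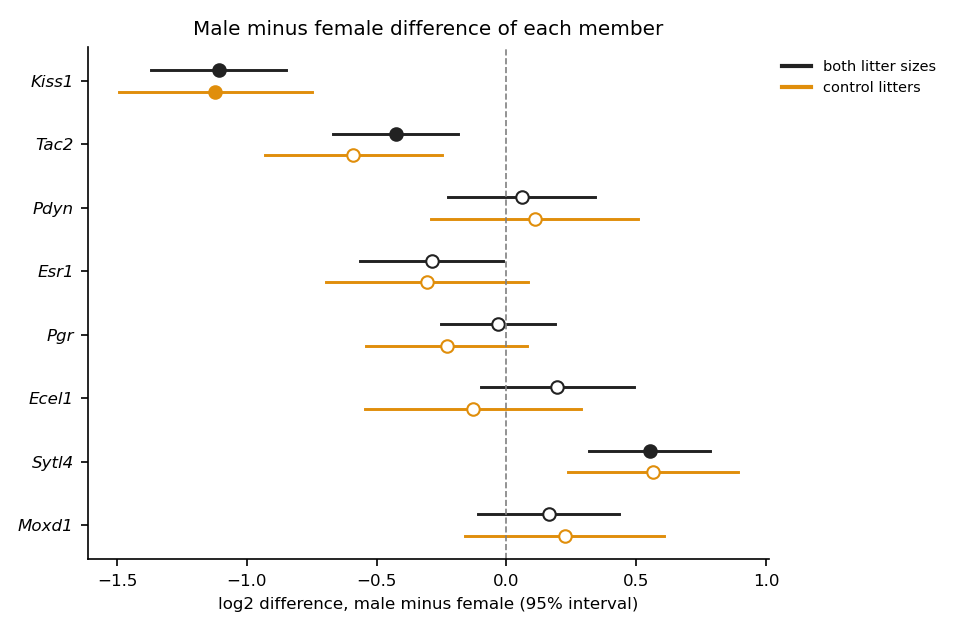
Male minus female log2 difference (x axis, with its 95% interval) of each measured gene over both litter sizes and in control litters; filled points passed an adjusted p of 0.05. The intervals of Kiss1 and Tac2 lie below 0 and that of Sytl4 above 0 in both, and the intervals of Pdyn, Pgr, Ecel1 and Moxd1 cross 0.

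Esr1 was lower in males in mean, and did not pass. It had log2 values of 5.95, 5.42 and 6.17 in small-litter males and 5.74, 5.86 and 6.15 in control males. It had 5.99, 6.24 and 6.14 in small-litter females and 5.97, 6.39 and 6.30 in control females. The sexes overlapped, and the difference of -0.29 ± 0.13 had an unadjusted p of 0.0411 and an adjusted p of 0.187 by limma. Counting by unadjusted p under 0.05, 4 of 8 genes over both litter sizes and 3 of 8 in control litters were past it, where 24.2% and 12.2% of all features were. Pgr (-0.03 ± 0.10), Ecel1 (0.20 ± 0.14) and Moxd1 (0.16 ± 0.13) had overlapping sexes. Their 95% intervals were -0.25 to 0.19 for Pgr, -0.10 to 0.49 for Ecel1 and -0.11 to 0.43 for Moxd1. Pgr had log2 values of 5.43, 5.23 and 5.21 in small-litter males, 5.02, 4.97 and 5.38 in small-litter females, 5.23, 4.90 and 5.06 in control males and 5.44, 5.04 and 5.41 in control females. It was near the background in both sexes, detected on 5 of 6 male and 5 of 6 female arrays.

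**Figure D4:**
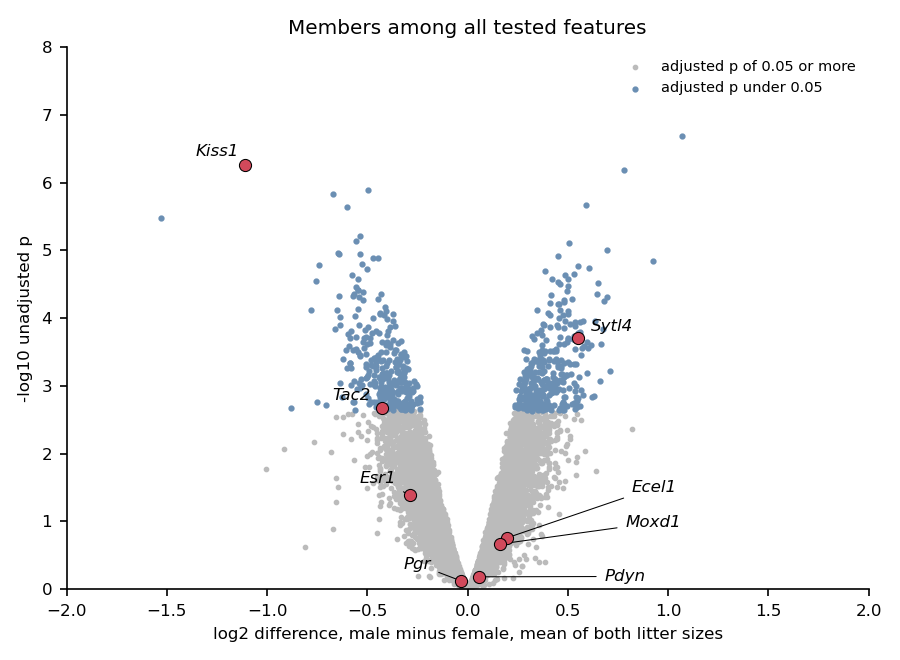
Male minus female log2 difference over both litter sizes (x axis) against -log10 of the unadjusted p (y axis) for all tested features, with the 8 measured genes in red; 6 features outside the axes are not drawn. Kiss1 lies at -1.11, among the features of smallest p, Tac2 and Sytl4 lie among the features that passed, and the other 5 genes lie among those that did not.

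The next comparison set small-litter mice against controls within each sex. None of the 8 genes passed an adjusted p of 0.05 in males or in females by limma, and 0% of all features did in either. Without small-litter male 1, 662 features passed in males, and none of the 8 genes was among them. By unadjusted p under 0.05, 1 of 8 was past it in males and 1 of 8 in females, where 13.4% and 3.34% of all features were. For Kiss1 the difference, small litter minus control, was -0.02 ± 0.17 in males (95% interval -0.39 to 0.35) and -0.05 ± 0.17 in females (-0.42 to 0.32). These intervals hold the changes of Kiss1 that 3 mice a group leave possible, and are not limits of detection. Esr1 (-0.07 ± 0.18 in males, -0.10 ± 0.18 in females), Sytl4 (-0.11 ± 0.15 and -0.09 ± 0.15) and Pdyn (-0.06 ± 0.18 and 0.04 ± 0.18) did not pass either.

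In females the gene with the smallest p was Tac2. On its brighter probe small-litter females averaged 7.02 ± 0.18 and control females 7.36 ± 0.20 (SD, n = 3 each), a difference of -0.35 ± 0.16 with an unadjusted p of 0.0461 and an adjusted p of 0.9996 by limma. Small-litter female 3 at 7.20 lay above control female 3 at 7.19, so the groups overlapped. The dimmer probe did not show it, with a difference of 0.01 ± 0.19. Thalamus markers had a mean deviation of -0.16 to 0.30 in small-litter and -0.18 to -0.03 in control females, and arcuate markers had -0.20 to 0.18 in small-litter and 0.08 to 0.20 in control females. All 14 measured thalamus markers were higher and all 7 arcuate markers lower in mean in small-litter females. The part of the dissection in the Tac2 difference was not tested.

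In males the gene with the smallest p was Moxd1, which encodes a monooxygenase-like protein of the secretory pathway. Its brighter probe had log2 values of 4.89, 5.07 and 5.16 in small-litter males and 5.52, 5.07 and 5.78 in control males. Control male 2 lay within the range of the small-litter males. The difference was -0.41 ± 0.18 (unadjusted p = 0.0364, adjusted p = 0.343 by limma). In females this probe had 4.65, 4.93 and 5.24 in small litters and 5.32, 5.17 and 5.20 in control litters, a difference of -0.29 ± 0.18. It was detected on 2 of 3 small-litter male, 1 of 3 small-litter female, 3 of 3 control male and 3 of 3 control female arrays. Averaged over the sexes the difference was -0.35 ± 0.13, with an unadjusted p of 0.0148 and an adjusted p of 0.814. By p 1 of 8 genes was past 0.05 in this average, where 6.08% of all features were, and 0 of 8 passed after adjustment, as did 0% of all features. The other Moxd1 probe was detected on 1 of 12 arrays and did not count as measured.

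Ecel1, which encodes an endopeptidase of the neprilysin family made in neurons, had litter differences of opposite sign in the sexes, and neither passed. It had log2 values of 9.03, 9.50 and 9.18 in small-litter males and 8.96, 8.73 and 8.90 in control males, with no overlap. It had 8.40, 8.70 and 9.05 in small-litter females and 8.94, 9.37 and 8.67 in control females, which overlapped. The difference was 0.37 ± 0.19 in males (adjusted p = 0.421 by limma) and -0.28 ± 0.19 in females (adjusted p = 0.9996). The interaction (litter effect in females less the litter effect of males) was -0.65 ± 0.27, with an unadjusted p of 0.0338 and an adjusted p of 0.474. Pgr had differences of 0.22 ± 0.14 in males and -0.17 ± 0.14 in females, with an interaction of -0.40 ± 0.20 (adjusted p = 0.521).

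**Figure D5:**
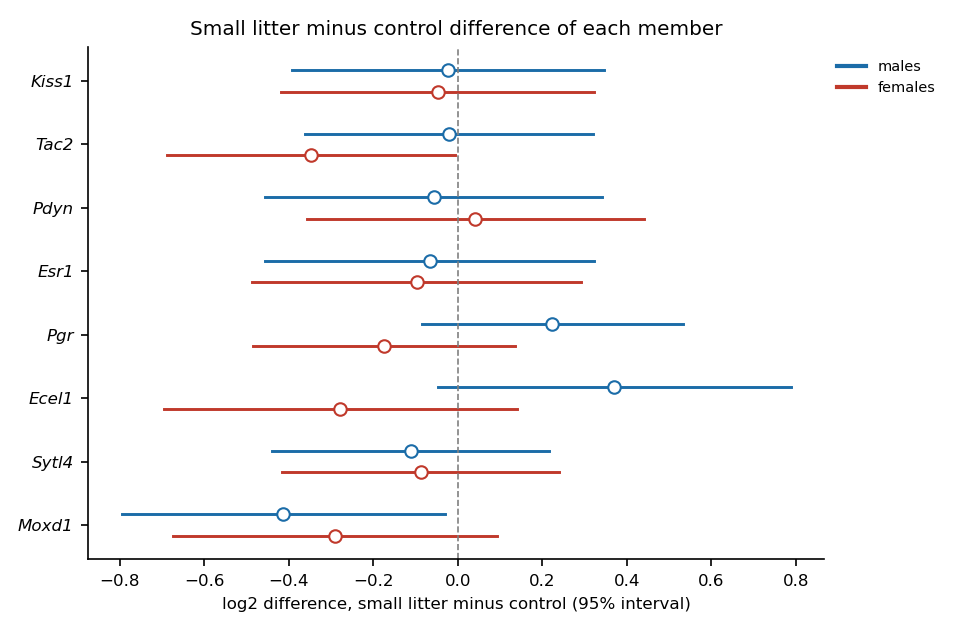
Small litter minus control log2 difference (x axis, with its 95% interval) of each measured gene in males and in females; open points did not pass an adjusted p of 0.05, and no gene did. Ecel1 and Pgr lie above 0 in males and below 0 in females, Moxd1 lies below 0 in both sexes, and Kiss1 lies close to 0 in both.

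For the interaction over the 8 genes, 1 was past an unadjusted p of 0.05, where 9.75% of all features were, and none passed after adjustment, as did 0% of all features. No difference in the sex effect on Kiss1 between the kinds of litter was detected. Its interaction was -0.02 ± 0.24 (95% interval -0.55 to 0.50), with means of 5.27 ± 0.18 in small-litter males and 6.37 ± 0.22 in small-litter females, and of 5.29 ± 0.30 in control males and 6.42 ± 0.24 in control females (SD, n = 3 each). The Tac2 interaction was -0.33 ± 0.22 and that of Sytl4 was 0.02 ± 0.21.

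For Kiss1 the groups ran from small-litter males at 5.27 and control males at 5.29 to small-litter females at 6.37 and control females at 6.42, and within each sex the neighbours did not differ beyond their spread. For Tac2 they ran from small-litter males at 6.75 and control males at 6.77 to small-litter females at 7.02 and control females at 7.36. Each of the Tac2 neighbours overlapped. For Sytl4 the order was small-litter females at 8.38, control females at 8.47, small-litter males at 8.92 and control males at 9.04, and only control females and small-litter males did not overlap among these neighbours.

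Correlations between the genes did not pass after adjustment in either sex. Since Kiss1 and Sytl4 split by sex, they are given within each sex, over 6 mice that also share their arrays' signal, and the 3 pairs of smallest p in males and the 2 in females are named, with Kiss1 and Tac2 given in both sexes. In males Tac2 and Sytl4 had r = 0.96 and rho = 1.0 (exact permutation p = 0.00139 and 0.00278, adjusted p = 0.0778 and 0.156 over 56 pairs). Kiss1 and Tac2 had r = 0.925 and rho = 0.943 (exact permutation p = 0.00833 and 0.0167, adjusted p = 0.122 and 0.187), and Kiss1 and Pdyn had r = 0.959 and rho = 0.886 (exact permutation p = 0.00833 and 0.0333, adjusted p = 0.122 and 0.207). Without the 2 mice farthest from the median of the first gene of each pair, r was 0.965, 0.982 and 0.885. In females Tac2 and Moxd1 had r = 0.898 and rho = 0.829 (exact permutation p = 0.0125 and 0.0583, adjusted p = 0.122 and 0.327), with r = 0.81 without 2 mice. In females Kiss1 and Tac2 had r = 0.021, and Kiss1 and Esr1 had r = 0.94 and rho = 0.886 (exact permutation p = 0.0139 and 0.0333, adjusted p = 0.122 and 0.207), with r = 0.751 without 2 mice. None of the 56 pairs passed after adjustment.

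The genes whose levels over the 12 arrays were most like each member are given as a description, since members and neighbours share arrays and sex. For Kiss1 they were Xist (r = 0.948), Fbxw7 (0.934) and Wdr89 (0.933). For Tac2 they were Tor4a (r = 0.955), Lrch1 (0.931) and Vat1l (0.918), and for Pdyn Fezf2 (r = 0.943), Zbtb7c (0.91) and Aloxe3 (0.903). For Esr1 they were Dnal1 (r = 0.909), Trp53rkb (0.889) and Tubb6 (0.859), and for Pgr Ccdc151 (r = 0.878), Ctsb (0.846) and Arf4 (0.84). For Ecel1 they were Lrrc75b (r = 0.876), Rgs10 (0.872) and Lyplal1 (0.868). After Tshb, those of Sytl4 were Lamp5 (r = 0.929) and Pkia (0.918), and for Moxd1 they were Map1s (r = 0.852), Clec2d (0.82) and 1110017D15Rik (0.814).

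Other genes of the pathway were read from 3 further lists. Of 23 genes of the control of gonadotropin-releasing hormone, 17 were measured, and 0 passed in any comparison by limma. By unadjusted p under 0.05, 3 of 17 were past the threshold between the sexes over both litter sizes (24.2% of all features), 1 in control litters (12.2%), 2 between litter sizes in males (13.4%) and 1 in females (3.34%). Over both litter sizes 7 were higher and 10 lower in males, with a median of -0.02 against -0.01 over all features. In the litter comparison 12 were higher and 5 lower in small-litter males (median 0.05, all features -0.01), and 5 were higher and 12 lower in small-litter females (median -0.09, all features 0.00). Kiss1r, the kisspeptin receptor gene, had 5.21, 5.33 and 5.32 in small-litter males and 5.58, 5.66 and 5.61 in control males, without overlap, at -0.33 ± 0.11 (adjusted p = 0.271). In females it was at -0.01 ± 0.11. Npvf, the precursor of gonadotropin-inhibitory peptides, was at 0.48 ± 0.16 in small-litter males (adjusted p = 0.269), a size limited by control males 1 and 3, in which it was not detected. Nos1, the neuronal nitric oxide synthase gene, was at 0.38 ± 0.18 in small-litter males and -0.46 ± 0.18 in small-litter females, with an interaction of -0.84 ± 0.25 (adjusted p = 0.406). Fgfr1 was at 0.24 ± 0.10 in males against females (adjusted p = 0.161).

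Of 25 steroid receptor, coregulator and steroid metabolism genes, 9 were measured and 0 passed in any comparison by limma, with 3 past an unadjusted p of 0.05 between the sexes over both litter sizes (24.2% of all features), 1 in control litters (12.2%), and 0 between litter sizes in males (13.4%) or in females (3.34%). Over both litter sizes 5 were higher and 4 lower in males (median 0.05), and 6 were higher and 3 lower in small-litter mice of each sex. The membrane estrogen receptor gene Gper1 was at -0.26 ± 0.08 in males against females (adjusted p = 0.0738 by limma). It had 5.76, 5.53 and 5.78 in small-litter males against 5.96, 5.98 and 5.81 in control males, and 6.38, 6.12 and 6.02 in small-litter females against 5.91, 5.98 and 5.99 in control females. Neither pair of groups overlapped, and the interaction of 0.44 ± 0.16 had an adjusted p of 0.46. Pgrmc2, a progesterone receptor membrane component, was at 0.25 ± 0.08 in males against females (adjusted p = 0.0768). The steroid dehydrogenase genes Hsd17b12, at -0.20 ± 0.07 in males against females (adjusted p = 0.1), and Hsd17b10, at 0.20 ± 0.11 in small-litter males (adjusted p = 0.432), also did not pass.

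Of 21 other genes known as sexually dimorphic or steroid-regulated in the hypothalamus, 15 were measured and 1 passed between the sexes over both litter sizes, where 4.66% of all features did. Nts, the neurotensin gene, was lower in males, at -0.38 ± 0.09 (adjusted p = 0.0374 by limma). It had 7.53, 7.65 and 7.17 in small-litter males and 7.57, 7.28 and 7.49 in control males, against 7.78, 7.56 and 7.77 in small-litter females and 8.02, 7.87 and 7.99 in control females. In control litters the sexes did not overlap, and in small litters they did. The call held under 10 of 23 settings, with an adjusted p of up to 0.152. Of the 15, 7 were higher and 8 lower in males, with a median of -0.05. In small-litter males 7 were higher and 8 lower, and in small-litter females 3 were higher and 12 lower. Dgkk, a diacylglycerol kinase gene, was at -0.58 ± 0.20 in control males against control females (adjusted p = 0.274 by limma). In small litters it had 8.56, 9.28 and 9.49 in males and 8.66, 8.73 and 9.17 in females. Over both litter sizes Dgkk was at -0.17 ± 0.14, and its interaction was -0.84 ± 0.28 (adjusted p = 0.437). Nnat was at 0.31 ± 0.12 in males against females over both litter sizes (adjusted p = 0.131 by limma). In control litters alone Nnat was at 0.02 ± 0.16, and its interaction was -0.58 ± 0.23 (adjusted p = 0.469). Its highest values were 11.53 and 11.37, in small-litter males 2 and 3. Brs3, a bombesin receptor gene, was at 0.41 ± 0.18 in small-litter males (adjusted p = 0.346). Its size is limited by control males 1 and 2, in which it was not detected.

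Over both litter sizes the mean deviations of the arcuate and of the preoptic markers overlapped between the sexes. Even so, 6 arcuate markers were lower and 1 higher in males (median -0.12, all features -0.01). Of the preoptic and anterior markers, 4 were lower and 2 higher in males (median -0.04). Their part in the Kiss1 and Tac2 differences over both litter sizes was not tested. The mean deviation of 7 arcuate markers was -0.18 to 0.07 in males and -0.20 to 0.20 in females, and that of 6 preoptic and anterior markers was -0.24 to 0.18 in males and -0.17 to 0.24 in females. None of either list passed an adjusted p of 0.05 by limma, with 0 of 7 and 1 of 6 past an unadjusted p of 0.05, where 24.2% of all features were.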

How the data were processed

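Per the labels, biotin-labelled total RNA of 12 hypothalami was measured, 1 bead array to a mouse. The authors deposited a mean bead intensity for each probe and array, not normalized, with a detection p-value, per the file headers. The authors' processed log2 values, also deposited, cover 20791 probes; the submitters' processing notes name lumi, without settings. They tracked the log2 intensities of the same array, had the same median on all arrays, and served as an alternative.

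Here neqc (limma 3.58.1 under R 4.3.3; offset 16) corrected the background and normalized by quantiles. The 19704 probes detected at p under 0.01 on 3 of 12 arrays were kept, and the brightest probe stood for its gene. Group means were fitted with lmFit and moderated by eBayes (8 residual df, 4.84 prior df), in 6 comparisons. Probes were named from a table that gives 18003 probes 1 symbol, and genes absent from it were not analysed here. The fit was tested on simulated data. Precision is limited by the number of arrays. Named genes are all members, up to 4 genes of smallest p per list and the 3 genes most like each member. Other settings tried were the deposited log2 values, omission of background correction, offset 50, scaling by medians, stricter and looser detection filters, probes taken singly, eBayes with trend and robust, fewer arrays and a replicate block. The members and lists were chosen with earlier results of these data known.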

Additional observations from a re-analysis of the deposited data

How the results depend on the processing

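Of 1110 values of the 8 measured genes under other settings, 81 changed sign, 30 lost their call and 0 gained one; no litter or interaction value passed under any setting. The number of features called between the sexes over both litter sizes, 631, became 1071 with the authors' values, 1144 with a trended and robust variance, 964 with probes taken singly, 344 with median scaling, 1075 without background correction and 984 with offset 50. It became 21 without small-litter males 2 and 3, 79 without control male 2 and control female 3, and 124 (without control female 3) to 1454 (without small-litter male 1) on leaving out single arrays. In control litters, 9 calls became 16 with the authors' values, 29 with a trended and robust variance, 15 with probes taken singly, 17 without background correction, 1 with detection on all 12 arrays, 5 with only the arrays compared, and 7 to 11 without single arrays. Leaving out single arrays, litter calls ranged 0 to 662 in males and interaction calls 0 to 190, both highest without small-litter male 1, and litter calls ranged 0 to 1 in females and 0 to 1 in the mean of both sexes. The replicate numbers share only a number, with correlations of same-numbered deviations of -0.126 to 0.111. With the replicate block 352 features were called between the sexes over both litter sizes, and Tac2 had an adjusted p of 0.0782.

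With median scaling the signs turned for the mean litter difference of Ecel1 (-0.0617) and Pgr (-0.0084) and the female litter difference of Pdyn (-0.0261). Without small-litter males 2 and 3 they turned for the male litter difference of Esr1 (0.0313), Kiss1 (0.0353), Pdyn (0.1256), Sytl4 (0.0241) and Tac2 (0.0438), the mean litter difference of Ecel1 (-0.058) and Pdyn (0.0836), the interaction of Pdyn (-0.0839) and Sytl4 (-0.112) and the sex difference of Pgr (0.0375). Without control male 2 and control female 3 they turned for the mean litter difference of Ecel1 (-0.0691), the female litter difference of Pdyn (-0.0955), the interaction of Esr1 (0.0333) and Kiss1 (0.046) and the sex difference of Pgr (0.0379). Leaving out 1 array at a time, these unpassed log2 differences changed sign. For the mean litter difference the ranges were Ecel1 -0.0368 to 0.1409, Esr1 -0.1635 to 0.0237, Kiss1 -0.0983 to 0.0489, Pdyn -0.0762 to 0.0935 and Pgr -0.0393 to 0.0664. For the litter difference in females the ranges were Kiss1 -0.1731 to 0.0737, Pdyn -0.0955 to 0.1536 and Sytl4 -0.1651 to 0.0178. For the litter difference in males the ranges were Esr1 -0.2294 to 0.1452, Kiss1 -0.1397 to 0.1455, Pdyn -0.1751 to 0.1454, Sytl4 -0.2002 to 0.0448 and Tac2 -0.1331 to 0.1231. For the interaction the ranges were Esr1 -0.2429 to 0.1317, Kiss1 -0.1933 to 0.0971, Moxd1 -0.0403 to 0.3166, Pdyn -0.1037 to 0.2168 and Sytl4 -0.1328 to 0.1294. For the sex difference over both litter sizes the ranges were Pdyn -0.0422 to 0.1203 and Pgr -0.0949 to 0.0322. For the sex difference in control litters the ranges were Ecel1 -0.2918 to 0.0613 and Pdyn -0.0940 to 0.2265. The causes were not tested. Signals near background, as for Kiss1 in males, Pgr and Moxd1, limit what could be detected.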
